A study of Mus musculus with 16 samples.

Results

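The genes described here are 7 genes known as targets of bone morphogenetic protein (BMP) signalling: Id1, Id2, Id3, Id4, Bambi, Smad9 and Atoh8. They were chosen by gene symbol from the 35275 genes of the count table, and all 7 were found. In the GRCm38.p6 build Id1 lies at chr2:152736251-152737410 and Id4 at chr13:48261427-48264036, while Bambi lies at chr18:3507957-3516404 and Atoh8 at chr6:72206177-72235577; Id2, Id3 and Smad9 are placed beside their upstream sequence. Macrophages derived from tibial marrow (strain C57BL/6) had been profiled by RNA sequencing in 4 groups of 4 libraries each. The 4 groups were CAGGCre-ER;Smad7 fl/fl macrophages (KO) with TGF-β1, KO macrophages left untreated, Smad7 fl/fl macrophages with TGF-β1, and Smad7 fl/fl macrophages left untreated. Cells had been cultured in colony-stimulating factor 1 and starved of serum for about 12 hours, and the TGF-β1 dose was 10 ng/ml over 4 hours. All mice, the fl/fl controls included, were 1 to 2 months old and had received tamoxifen at 20 mg/kg for 5 days, with marrow taken 2 weeks later. Only the KO mice carried the Cre recombinase, which the CAGG promoter drives in all tissues, so loss of Smad7 and presence of Cre cannot be told apart. The labels do not say whether the replicates came from separate mice, and p-values therefore measure only the spread between these libraries.

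Id proteins are helix-loop-helix proteins that lack the basic region needed to bind DNA. They pair with basic helix-loop-helix (bHLH) transcription factors such as the E proteins and keep them off their DNA sites. Their genes are the classic targets of BMP receptors acting through Smad1, Smad5 and Smad9, whereas TGF-β1 acts mainly through Tgfbr1 and Smad2 and Smad3, and in some cell types also through Smad1 and Smad5. Smad7, an inhibitory Smad, blocks type I receptors of both branches. Bambi is a membrane pseudoreceptor without a kinase domain that dampens both branches, Smad9 is a receptor-activated Smad of the BMP branch, and Atoh8 is a bHLH transcription factor induced by BMP in liver and endothelium.

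Totals of counts ran from 16865591 to 23741079 per library, so a floor of 3 counts corresponded to 0.126 to 0.178 CPM, counting error only; CPM here are counts relative to the TMM-scaled library total. Macrophage markers were present at high level in every library: 8 of 9 listed genes were in the table, all 8 exceeded 1 CPM, and their summed level ran from 15912 to 24154 CPM. KO untreated replicate 2 differed in Mertk, with 74.2 CPM against 154 to 229 CPM in the other libraries. It also differed in Cd14, with 1053 CPM against 234 to 434 CPM in the others. Smad7, the targeted gene, had 10.3 to 19.7 CPM in KO libraries with TGF-β1, against 37.3 to 58.3 CPM in fl/fl libraries with TGF-β1. It had 5.87, 1.28, 1.64 and 2.00 CPM in the untreated KO libraries, against 3.89 to 6.03 CPM in the untreated fl/fl libraries. The library labelled KO untreated replicate 1 stood apart. Over the 498 genes that rose by more than 2-fold with TGF-β1 in KO macrophages when that library was left out, it lay at a median of 94.7% of the log2 distance between the other 3 untreated KO libraries and the TGF-β1-treated ones. Fold changes of KO macrophages that use it are therefore given with all 16 libraries and again with 15. Whether the label or the treatment of this library differs from the record was not tested.

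Id3 was low in untreated macrophages and, with Id2, had the highest levels of the 7 genes with TGF-β1. In KO macrophages with TGF-β1 the 4 libraries had 184, 116, 97.5 and 77.6 CPM of Id3, against 62.5, 6.47, 3.50 and 2.73 CPM in KO macrophages left untreated. In fl/fl macrophages with TGF-β1 the 4 libraries had 65.9, 69.3, 97.4 and 135 CPM, against 2.15, 1.75, 1.95 and 2.23 CPM in untreated fl/fl macrophages. Treated and untreated libraries did not overlap in either genotype, and the 62.5 CPM of KO untreated replicate 1 was close to the lowest treated values.

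Id2 was the Id gene with the highest level in untreated cells. KO macrophages with TGF-β1 had 122, 103, 97.5 and 82.2 CPM of Id2, against 56.1, 16.9, 22.8 and 19.2 CPM in untreated KO macrophages. The fl/fl macrophages with TGF-β1 had 74.8, 81.0, 102 and 86.6 CPM, against 20.7, 15.8, 23.2 and 27.1 CPM in untreated fl/fl macrophages. The treated libraries were all above the untreated ones in both genotypes, and KO untreated replicate 1 again lay between the 2 sets.

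Id1 followed the same pattern at a much lower level. Its CPM values were 4.68, 3.14, 1.99 and 1.48 in KO macrophages with TGF-β1, against 1.24, 0.308, 0.399 and 0.0525 in untreated KO macrophages. They were 1.76, 1.67, 1.44 and 1.46 in fl/fl macrophages with TGF-β1, against 0, 0.291, 0.434 and 0.252 in untreated fl/fl macrophages. These rest on 33 to 87 reads per KO library and 28 to 32 reads per fl/fl library with TGF-β1, and on 0 to 26 reads per untreated library. Among the KO libraries with TGF-β1, replicate 1 was the highest and replicate 4 the lowest for Id1, Id2 and Id3 alike; replicate 1 also had the lowest mitochondrial share of that group, 1.197% of counts, and the highest share of ribosomal protein genes, 3.34%. In fl/fl libraries with TGF-β1, replicate 4 had the highest Id3 and a mitochondrial share of 0.575%; the part of either in these values was not tested.

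**Figure D1:**
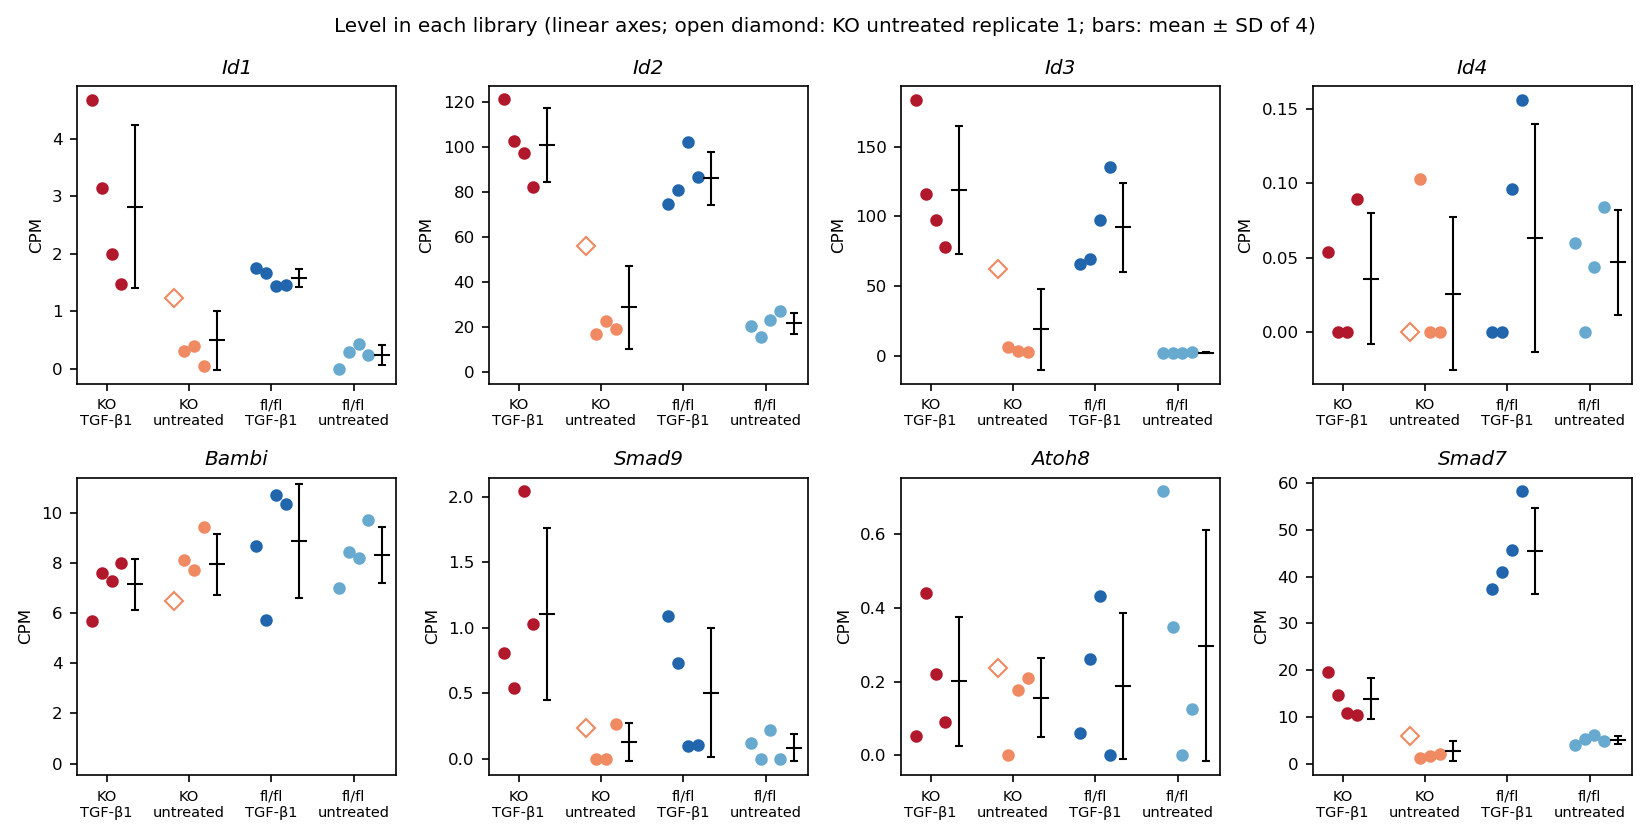
Level of each of the 7 genes and of Smad7 in each library, in CPM on linear axes, with the 4 groups along each horizontal axis, 1 point per library and bars for mean ± SD of 4 libraries. Id1, Id2 and Id3 were higher in all TGF-β1 libraries of a genotype than in its untreated ones, Bambi overlapped in all groups, and KO untreated replicate 1, the open diamond, had 62.5 CPM of Id3 and 56.1 CPM of Id2.

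In fl/fl macrophages, TGF-β1 raised Id3 45.3-fold, a log2 fold change of 5.50 ± 0.92 (SE, adjusted p = 0.00149, edgeR quasi-likelihood test with Benjamini-Hochberg adjustment over 13080 genes). Id2 rose 3.96-fold, by a log2 fold change of 1.99 ± 0.30 (edgeR adjusted p = 8.85e-04). Id1 rose 6.12-fold, by 2.61 ± 0.69 on the log2 scale (edgeR adjusted p = 0.0144). Of the 7 genes, 5 entered the fit and these 3 were called higher, where 7.87% of all tested genes were called higher and 11.4% had all treated libraries above all untreated ones. Id1 and Smad9 passed the filter on low counts only through their TGF-β1 libraries, so that neither their presence in the fit nor the count of 3 is evidence about the set. All 3 calls held in each alternative fit that was run, with adjusted p between 6.71e-10 and 0.0418.

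In KO macrophages the same 3 genes had fold changes of like direction, and how far they passed the test depended on KO untreated replicate 1. With 16 libraries Id2 rose 3.51-fold (log2 fold change 1.81 ± 0.30, edgeR adjusted p = 0.00808) and Id1 rose 5.53-fold (2.47 ± 0.63, edgeR adjusted p = 0.0344). Id3 had a fold change of 6.30 (2.66 ± 0.76) and missed the threshold, with an edgeR adjusted p of 0.0581. These were 2 called of 7 genes, where 2.19% of all tested genes were called higher and 2.98% did not overlap in that direction. Without KO untreated replicate 1, Id3 rose 28.8-fold (4.85 ± 0.36, edgeR adjusted p = 1.84e-08), Id2 5.24-fold (2.39 ± 0.19, edgeR adjusted p = 3.17e-08) and Id1 10.9-fold (3.45 ± 0.65, edgeR adjusted p = 8.81e-04). In that fit of 13335 genes 8.17% were called higher and 11.4% did not overlap in that direction. There 4 of the 7 genes were called, Smad9 being the fourth. The limit on Id1 and Smad9 given above holds here too, so the counts of 2 and 4 are no evidence about the set.

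The call of Id1 in KO macrophages was the least stable of these. It was lost when any of the 4 KO libraries with TGF-β1, KO untreated replicate 2, 3 or 4, or fl/fl untreated replicate 2 was left out (edgeR adjusted p between 0.0502 and 0.119), and when only the KO libraries were fitted (0.180). Its log2 fold change was between 2.12 and 2.69 in those fits. The call of Id2 was lost only in the fit of the KO libraries alone (log2 fold change 1.82, edgeR adjusted p = 0.150). The call of Id3 was gained when same-numbered libraries of a genotype were paired as a block (3.77 ± 0.54, edgeR adjusted p = 0.00786), and also by DESeq2 (adjusted p = 0.0122).

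Id genes are also expressed by endothelial cells, and the summed level of endothelial markers differed with treatment. The summed level of 8 endothelial markers was 85.2 to 131 CPM in KO libraries with TGF-β1, against 36.5 to 83.7 CPM in untreated KO libraries. It was 107 to 150 CPM in fl/fl libraries with TGF-β1, against 73.2 to 86.4 CPM in untreated fl/fl libraries. Most of it came from Vwf, with 75.03 to 116 CPM in treated KO libraries against 24.0 to 69.3 CPM in untreated ones, and 98.0 to 137 CPM in treated fl/fl libraries against 64.0 to 71.5 CPM in untreated ones. Kdr, the next in level, had 7.91 to 20.2 CPM in treated KO libraries against 9.71 to 14.8 CPM in untreated ones, and 6.16 to 12.4 CPM in treated fl/fl libraries against 5.64 to 16.2 CPM in untreated ones, so that its groups overlapped. Of the 8 genes 4 exceeded 1 CPM in at least 4 of the 16 libraries. The highest values in any library were 1.61 CPM for Cdh5, 1.95 CPM for Pecam1 and 1.67 CPM for Tie1. Tek, Emcn and Cldn5 had at most 0.134 CPM. In fl/fl macrophages Cdh5 had 0.721 to 1.03 CPM in treated libraries against 0.0434 to 0.582 CPM in untreated ones, without overlap. Pecam1 had 0.940 to 1.46 CPM against 0.174 to 0.757 CPM there, also without overlap. In KO macrophages Cdh5 had 0.753 to 1.61 CPM in treated libraries, against 1.43, 0.462, 0.177 and 0.158 CPM in untreated replicates 1 to 4. Its KO groups therefore overlapped only through KO untreated replicate 1. Pecam1 overlapped in KO macrophages with and without that library, and Tie1 overlapped in both genotypes. Summed lymphoid markers ran the other way and came mainly from Cd4, with Cd3e and Cd3g at 0 in every library. Summed erythroid and megakaryocyte markers, mainly Pf4, overlapped between treated and untreated libraries. They had 51.2 to 111 against 64.6 to 149 CPM in KO macrophages, and 39.7 to 123 against 56.4 to 110 CPM in fl/fl macrophages. Within each TGF-β1 group they ranked the libraries as Id3 did. Untreated KO replicates 2 to 4 also ranked alike. With KO untreated replicate 1 (74.4 CPM) included, or in untreated fl/fl macrophages, the order differed. The part of these lists in the Id values was not tested, and in bulk RNA fewer cells of a type and less RNA per cell cannot be told apart.

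**Figure D2:**
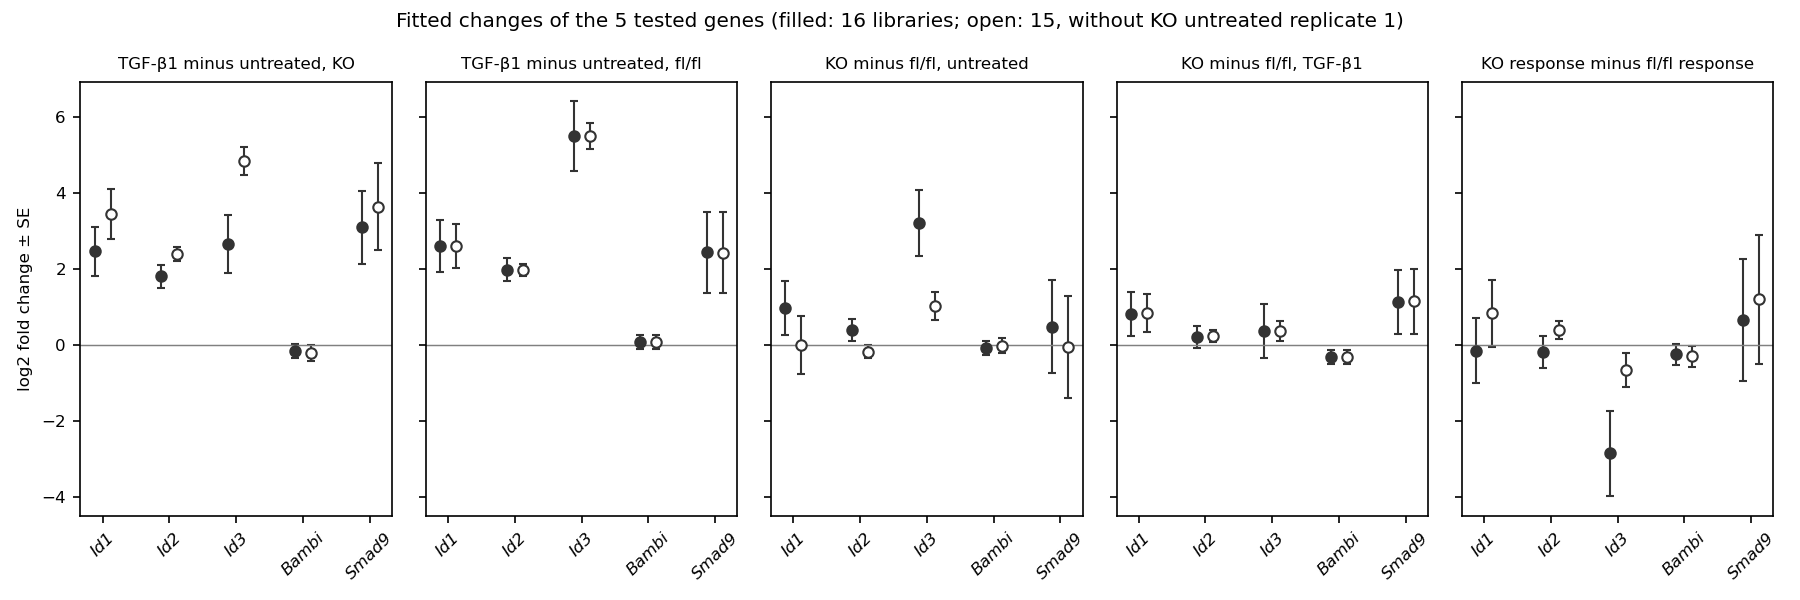
Log2 fold changes ± SE from the edgeR fit for the 5 tested genes in each comparison, with filled points for 16 libraries and open points for 15 without KO untreated replicate 1. Leaving out that library moved the Id3 response of KO macrophages to 4.85, against 2.66 with all libraries, and moved the fl/fl response little.

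KO untreated replicate 1 was not equally far along for Id1, Id2, Id3 and Smad9, while Bambi, Id4 and Atoh8 were not placed. On the scale where the other 3 untreated KO libraries are at 0% and the KO libraries with TGF-β1 at 100%, it lay at 82.3% for Id3, 67.8% for Id1, 64.6% for Id2 and 40.3% for Smad9. The library had only 26 reads of Id1 and 5 of Smad9, so these positions are rough. The middle part of the 498 responsive genes, between the quartiles, lay at 85.9% to 104%, and their 10th percentile was 72.6%. Id1 and Id2 were therefore among the genes in which this library fell shortest of the treated level, with 7.63% and 6.22% of the 498 genes lying lower. The other pathway genes placed on this scale were Pmepa1 at 99.8%, Skil at 99.7%, Smad6 at 91.0% and Smad7 itself at 60.5%. The rest of the pathway was not placed. These are values of a single library and carry no test.

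Between the genotypes, none of the 5 tested genes passed the edgeR test, with or without TGF-β1. With TGF-β1, KO macrophages averaged 119 ± 46.1 CPM of Id3 and fl/fl macrophages 92.0 ± 32.2 CPM (SD, n = 4 each). They averaged 101 ± 16.3 CPM of Id2 against 86.2 ± 11.7 CPM in fl/fl macrophages, and 2.82 ± 1.42 CPM of Id1 against 1.58 ± 0.157 CPM. The groups overlapped for all 3 genes, and the log2 fold changes, KO over fl/fl, were 0.37 ± 0.71 for Id3, 0.23 ± 0.29 for Id2 and 0.83 ± 0.58 for Id1. With TGF-β1 none of the 5 had an unadjusted p under 0.05, where 0.0382% of all tested genes were called at the adjusted threshold and 5.61% at the unadjusted one. None was called there without KO untreated replicate 1 (background 0.0600%), by DESeq2 or by limma.

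Among untreated cells, the 2 genotypes did not overlap for Id3, while they overlapped for the other tested genes. Leaving aside replicate 1, the untreated KO libraries had 6.47, 3.50 and 2.73 CPM of Id3, against 1.75 to 2.23 CPM in the 4 untreated fl/fl libraries. All KO values lay above all fl/fl values, the fold being 2.05 (log2 fold change 1.03 ± 0.38). The unadjusted p was 0.0134 in the edgeR fit and the adjusted p 0.372, so the difference did not pass the correction over all genes. In that comparison 0.0975% of the tested genes were called, 11.8% had an unadjusted p under 0.05 and 7.09% did not overlap with KO higher. With all 16 libraries the log2 fold change was 3.21 ± 0.87 (edgeR adjusted p = 0.334), where 0.0459% of genes were called, 10.9% had an unadjusted p under 0.05 and 3.94% did not overlap with KO higher. DESeq2 called Id3 there with 16 libraries (adjusted p = 0.0181). That fit included KO untreated replicate 1, at 62.5 CPM of Id3, and DESeq2 was not run without it. It called 61 genes in this comparison, against 6 by edgeR. KO untreated replicate 2 was the highest of the 3 at 6.47 CPM. It also had the highest share of ribosomal protein genes of all libraries, 4.17%, and the highest mitochondrial share, 2.71%. Its summed erythroid and megakaryocyte markers were the highest as well, at 149 CPM, and its Mertk and Cd14 levels differed as given above. The part of these in its Id3 level was not tested. Id2 and Id1 did not separate the untreated groups, with log2 fold changes of 0.40 ± 0.30 and 0.98 ± 0.72 with 16 libraries and −0.17 ± 0.18 and 0.00 ± 0.77 without KO untreated replicate 1.

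The difference between both responses to TGF-β1 was tested as an interaction. For Id3 the KO response minus the fl/fl response was −2.84 ± 1.12 on the log2 scale with 16 libraries (unadjusted p = 0.0229, edgeR adjusted p = 0.993) and −0.65 ± 0.46 with 15, leaving out KO untreated replicate 1 (edgeR adjusted p = 0.981). Without that library the difference was 0.41 ± 0.24 for Id2 and 0.84 ± 0.88 for Id1; with it both were near 0, at −0.18 ± 0.42 and −0.15 ± 0.85. None of the 5 tested genes passed, as none of all tested genes did (0.00% with 16 and with 15 libraries). At an unadjusted p under 0.05 there were 275 genes with 16 libraries, 2.10% of those tested, Id3 among them. Without KO untreated replicate 1 there were 267, 2.00%, and none of the 5 was among them. With same-numbered libraries of a genotype paired as a block and that library left out, the Id3 difference was −0.89 ± 0.24, with an unadjusted p of 0.00324 and an edgeR adjusted p of 0.576. DESeq2 called 1 gene, and limma on log2(FPKM + 0.1) without a filter called 2, none of them one of the 5.

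Smad9, the BMP-branch Smad, was read at the edge of detection. KO macrophages with TGF-β1 had 15, 11, 37 and 23 reads, against 5, 0, 0 and 5 reads in untreated KO macrophages. The fl/fl macrophages with TGF-β1 had 18, 14, 2 and 2 reads, against 2, 0, 5 and 0 reads in untreated fl/fl macrophages. All treated KO libraries lay above all untreated KO libraries, whereas replicates 3 and 4 of treated fl/fl macrophages lay within the range of the untreated ones. The KO response had a log2 fold change of 3.10 ± 0.97 with 16 libraries (edgeR adjusted p = 0.0746). With 15 libraries it was 3.65 ± 1.15 (edgeR adjusted p = 0.0395) and passed the threshold. Smad9 had passed the filter on low counts only through its TGF-β1 libraries, so this call is no evidence about the set. The fl/fl response was 2.44 ± 1.07 (edgeR adjusted p = 0.142) and the difference between responses 0.65 ± 1.60 with 16 libraries (edgeR adjusted p = 0.993) and 1.21 ± 1.69 with 15 (edgeR adjusted p = 0.981), so no difference between genotypes was detectable at this depth.

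Bambi did not follow the Id genes. It had 5.70, 7.61, 7.30 and 8.01 CPM in KO macrophages with TGF-β1, against 6.49, 8.12, 7.75 and 9.45 CPM in untreated KO macrophages. It had 8.68, 5.75, 10.7 and 10.4 CPM in fl/fl macrophages with TGF-β1, against 6.999, 8.44, 8.20 and 9.72 CPM in untreated fl/fl macrophages. The groups overlapped in every comparison of the 4 groups. The log2 fold change with TGF-β1 was −0.15 ± 0.19 in KO macrophages with 16 libraries (edgeR adjusted p = 0.807), −0.21 ± 0.20 with 15 (edgeR adjusted p = 0.635) and 0.09 ± 0.19 in fl/fl macrophages (edgeR adjusted p = 0.815), which are small beside those of the Id genes measured in the same libraries.

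Id4 and Atoh8 did not pass the filter on low counts. Id4 had 14 reads over all 16 libraries, at most 3 in any library and 0 in 8 of them. Atoh8 had 65 reads, at most 12 in a library and 0 in 3. Over 8 exact two-sided permutation tests of their mean CPM, 4 libraries against 4 in each of the 4 comparisons of groups, the lowest p was 0.486 (adjusted 0.990), where such a test cannot go below 0.0286. A change of these genes was not detectable at this depth. Id4 overlaps an antisense long noncoding RNA, A330033J07Rik, which had 0 counts.

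Per length of transcript, Id2 and Id3 made up nearly all of the Id message, and their balance differed with treatment. Levels of different genes are compared here in FPKM, which divides the fragment count by gene length and library size. Summed over the 4 Id genes, the level was 178 ± 61.2 FPKM in KO macrophages with TGF-β1, against 19.6 ± 1.93 FPKM in the 3 untreated KO libraries other than replicate 1 (38.8 ± 38.5 FPKM in all 4). It was 137 ± 32.7 FPKM in fl/fl macrophages with TGF-β1, against 18.9 ± 3.96 FPKM in untreated fl/fl macrophages (SD).

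Id3 was 52.1% ± 4.95 of that sum in KO macrophages with TGF-β1, against 17.5% ± 8.33 in the 3 untreated KO libraries. It was 50.01% ± 7.01 in fl/fl macrophages with TGF-β1, against 8.53% ± 1.18 in untreated fl/fl macrophages. Untreated macrophages thus had mainly Id2, 81.3% ± 8.85 in the 3 KO libraries and 90.2% ± 1.23 in fl/fl libraries, and treated macrophages had Id2 and Id3 in about equal parts. The ratio of Id3 to Id2 in FPKM was 1.14 ± 0.254 in KO and 1.06 ± 0.334 in fl/fl macrophages with TGF-β1, and 0.225 ± 0.135 in the 3 untreated KO libraries against 0.0947 ± 0.0142 in untreated fl/fl libraries. KO untreated replicate 1 had a ratio of 1.11, within the range of the treated libraries. Id1 averaged between 1.02% and 1.33% of the sum in the 4 groups.

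The order of the 7 genes by FPKM therefore changed with treatment. In KO macrophages with TGF-β1 it ran Id3 (95.2 ± 42.7), Id2 (80.8 ± 17.3), Id1 (2.50 ± 1.40), Bambi (1.43 ± 0.144), Smad9 (0.206 ± 0.117), Atoh8 (0.0856 ± 0.0748) and Id4 (0.0219 ± 0.0262). In untreated fl/fl macrophages it ran Id2 (17.1 ± 3.78), Bambi (1.65 ± 0.227), Id3 (1.58 ± 0.167), Id1 (0.211 ± 0.156), Atoh8 (0.126 ± 0.132), Id4 (0.0282 ± 0.0213) and Smad9 (0.0157 ± 0.0196). In fl/fl macrophages with TGF-β1 it ran Id3 (69.8 ± 26.1), Id2 (65.5 ± 10.1), Bambi (1.70 ± 0.468), Id1 (1.31 ± 0.101), Smad9, Atoh8 and Id4. In the 3 untreated KO libraries other than replicate 1 it ran Id2 (15.9 ± 2.21), Id3 (3.43 ± 1.67), Bambi (1.72 ± 0.172), Id1 (0.225 ± 0.159), Atoh8, Id4 and Smad9. Neighbours whose means differed by no more than the larger of their SDs were Id3 and Id2, Id1 and Bambi, and Atoh8 and Id4 in the treated cells of both genotypes, and also Smad9 and Atoh8 in the treated fl/fl cells. In the untreated fl/fl cells they were Bambi and Id3, Id1 and Atoh8, Atoh8 and Id4, and Id4 and Smad9, and in the 3 untreated KO libraries Atoh8 and Id4, and Id4 and Smad9. Smad9 and Atoh8 in the treated KO cells, and Id3 and Bambi, and Id1 and Atoh8, in the 3 untreated KO libraries differed by just over that.

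**Figure D3:**
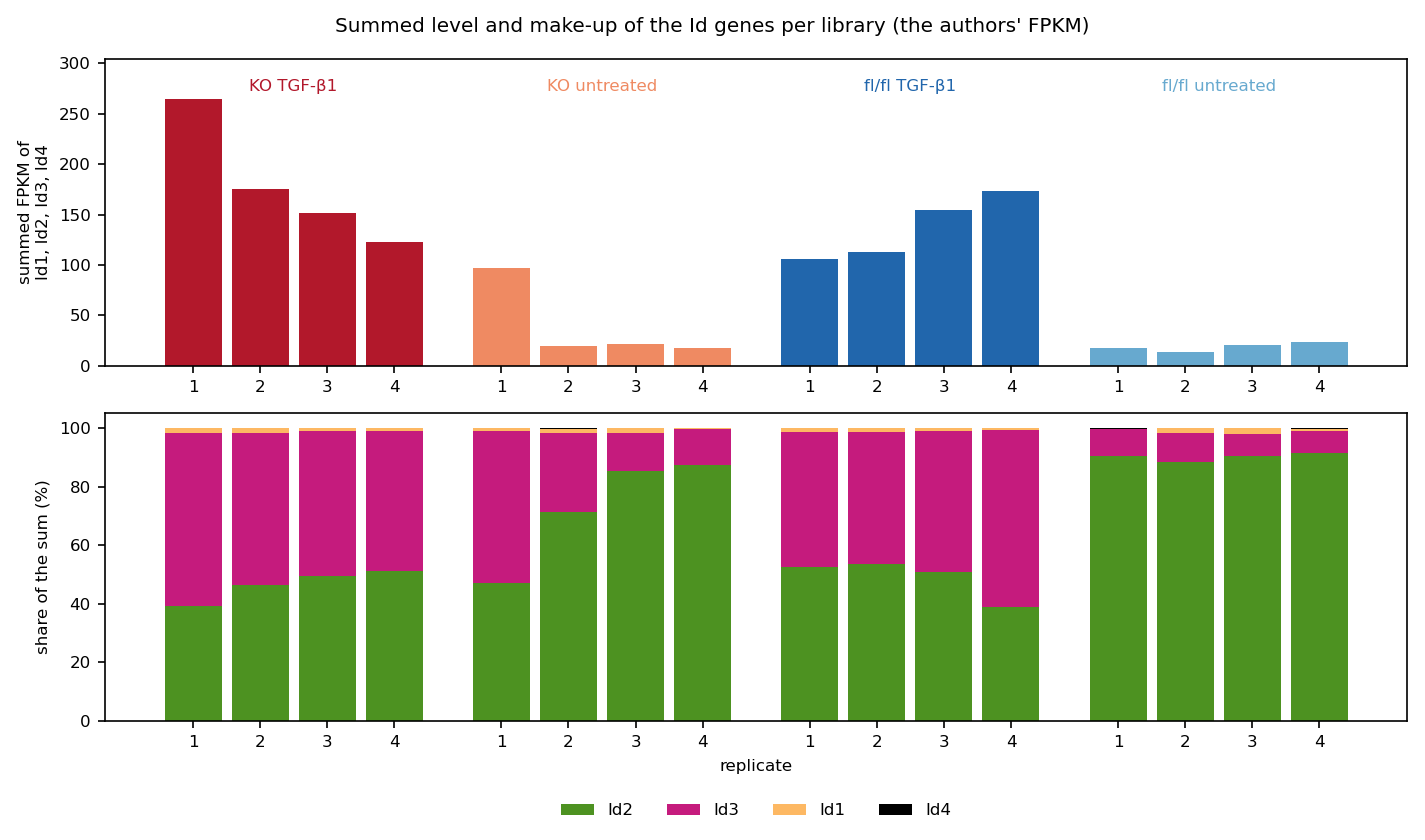
Summed FPKM of Id1, Id2, Id3 and Id4 in each library (upper bars, coloured by group) and the share of each gene in that sum in percent (lower stacked bars), with replicates 1 to 4 of each group along the horizontal axis. Id3 took 52.1% of the sum on average in treated KO libraries and 8.53% in untreated fl/fl libraries, and KO untreated replicate 1 resembled the treated libraries in make-up.

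Id2, Id3 and Smad9 lie on different chromosomes, at chr12:25093801-25096092 on the minus strand, chr4:136143497-136145755 on the plus strand and chr3:54755582-54801257 on the plus strand (GRCm38.p6). To show the sequence near the starts of Id2 and Id3, which rose in fl/fl macrophages, and of Smad9, the 250 bases before each start annotated by RefSeq (GRCm38.p6) were read, where 5 of the 7 genes had an entry; Id1 and Bambi were not among them. The RefSeq start of Id3 lies inside the gene as placed here, so its window lies in transcribed sequence, and that of Id4 lies before the start placed here. Capitals mark GGCGCC, a core of BMP-type Smad binding elements. They also mark AGAC, the reverse complement of the short Smad box, and the E-box form CAGCTG that bHLH factors bind. The stretches shown are part of these windows and do not hold every match: 89 bases of Id2 (chr12:25096254-25096342, minus strand, no annotated exon), 250 bases of Smad9 (chr3:54755332-54755581, plus strand) and 30 bases of Id3 (chr4:136143643-136143672, plus strand, in an annotated exon), each written 5′ to 3′.
Id2: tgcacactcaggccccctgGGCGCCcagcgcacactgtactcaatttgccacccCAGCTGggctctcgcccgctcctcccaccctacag
Smad9: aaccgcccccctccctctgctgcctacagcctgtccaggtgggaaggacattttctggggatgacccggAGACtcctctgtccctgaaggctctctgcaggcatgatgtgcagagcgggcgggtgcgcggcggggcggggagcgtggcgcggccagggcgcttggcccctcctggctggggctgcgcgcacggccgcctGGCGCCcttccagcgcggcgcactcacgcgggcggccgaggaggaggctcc
Id3: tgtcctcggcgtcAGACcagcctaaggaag

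The 4 motifs were searched on both strands in the 250 bases before each start. The BMP-type core GGCGCC was present 1 time each in the windows of Id2, Smad9 and Id4, and absent from those of Id3 and Atoh8; 9.59% of the 32851 promoters of the table hold it. The Smad box GTCT was present in Id2, Id3 and Smad9 and is found in 82.9% of promoters. The E-box form CAGCTG was present in Id2 and Atoh8 (13.0% of promoters), and the other E-box form, CAGATG, in none of the 5 (14.4% of promoters). Id4, which had 14 reads in all, shares GGCGCC with Id2. That the window of Id3 does not hold it says only that these letters are not in those bases.

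Across the 16 libraries the levels of Id1, Id2 and Id3 moved closely together, with Pearson correlations of log2 CPM of 0.906 for Id1 and Id2, 0.907 for Id1 and Id3 and 0.963 for Id2 and Id3. These describe libraries that share treatment groups and carry no test. Over 15 libraries the values were 0.906, 0.907 and 0.967. Bambi had negative values with each of them, between −0.290 and −0.201 with 16 libraries.

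Among 10025 other well-measured genes, those most like Id3 by this correlation were Rtcb (0.991), Sgk1 (0.990) and Smad6 (0.990). The genes most like Id2 were Hes1 (0.975), Usp2 (0.974) and Polg (0.974), and those most like Id1 were Gtf2ird2 (0.955), Frat2 (0.941) and Erf (0.937). For Smad9 they were Ctps2 (0.854), Kcnj10 (0.850) and Snx10 (0.836), and for Bambi Tspan3 (0.808), Rusc1 (0.774) and Mdh1 (0.752). Over 15 libraries each of these values changed by less than 0.1, and the 3 genes named for Id3 kept ranks 1, 2 and 3. The genes named for Id2 moved to ranks 5, 10 and 18, those for Id1 to 1, 3 and 5, those for Smad9 to 2, 1 and 5, and those for Bambi to 1, 4 and 6.

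The rest of the pathway was read from lists chosen with earlier results of these data known. Of 18 other BMP and Smad1/5 target genes, 9 were tested, and in fl/fl macrophages TGF-β1 raised 5 of them and lowered none. The shares of all tested genes in the same comparison were 7.87% higher and 7.61% lower. In KO macrophages 2 of the 9 rose with 16 libraries, Smad7 and Dlx2 (2.19% of all tested genes higher, 2.97% lower), and 6 without KO untreated replicate 1 (8.17% higher, 6.70% lower). The medians of the 9 log2 fold changes were 2.49 in fl/fl macrophages and, in KO macrophages, 1.75 with 16 and 2.98 with 15 libraries, where those of all tested genes were −0.01, −0.03 and −0.01. Hey1, Gata2 and Tbx2, 3 of the 9, passed the filter on low counts only through their TGF-β1 libraries, and the median in fl/fl macrophages is that of Gata2, which did not pass the test (87 reads in all, edgeR adjusted p = 0.115). These counts and medians are therefore a description and no evidence about the list.

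Smad6, the inhibitory Smad of the BMP branch and itself a BMP target, had 70.3 ± 5.21 CPM in KO macrophages with TGF-β1, against 4.34 ± 1.48 CPM in the 3 untreated KO libraries. It had 64.5 ± 10.0 CPM in fl/fl macrophages with TGF-β1, against 2.47 ± 0.868 CPM in untreated fl/fl macrophages. Its log2 fold change in KO macrophages missed the threshold with 16 libraries (2.05 ± 0.68, edgeR adjusted p = 0.0988) and passed with 15 (4.05 ± 0.23, edgeR adjusted p = 8.23e-10). In fl/fl macrophages it was 4.70 ± 0.80 (edgeR adjusted p = 0.00167). Pdgfa, a growth factor gene, rose by 3.60 ± 0.70 on the log2 scale in fl/fl macrophages. In KO macrophages Pdgfa had 1.75 ± 0.65 with 16 libraries, which did not pass (edgeR adjusted p = 0.148), and 3.64 ± 0.16 with 15, which did. Smad7, Dlx2 and Runx2 also rose in fl/fl macrophages. Hey1, a Notch and BMP target, had log2 fold changes in KO macrophages of 2.40 ± 0.78 with 16 libraries (edgeR adjusted p = 0.0849) and 3.72 ± 0.90 with 15 (edgeR adjusted p = 0.00716). In fl/fl macrophages Hey1 had 2.33 ± 0.79 with 16 libraries (edgeR adjusted p = 0.0557) and 2.34 ± 0.72 with 15 (edgeR adjusted p = 0.0297).

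BMP ligands and their antagonists were mostly below the filter. Of 21 ligand genes 3 were tested, and Gdf15 fell in fl/fl macrophages by 0.83 on the log2 scale (SE 0.23, edgeR adjusted p = 0.0179). In KO macrophages Gdf15 fell both with 16 libraries (−0.82 ± 0.23) and without KO untreated replicate 1 (−0.96 ± 0.20). Bmp2 had 94 reads in all 16 libraries. In KO macrophages its log2 fold change was −2.51 ± 1.05 with 16 libraries (edgeR adjusted p = 0.201) and −2.89 ± 0.93 with 15 (edgeR adjusted p = 0.0435). In fl/fl macrophages it was −2.40 ± 0.95 (edgeR adjusted p = 0.103). Bmp2 passed the filter on low counts only through its untreated libraries, so its call is no evidence about the ligands. The median over the 3 tested ligands was −0.83 in fl/fl macrophages. Bmp4, Bmp6 and Bmp7, common BMP ligands, had 1, 3 and 12 reads over all libraries. Of 17 antagonist genes 3 were tested and none passed in either genotype. Twsg1, which binds BMPs outside the cell, had −0.24 ± 0.11 in fl/fl macrophages (edgeR adjusted p = 0.192). Over all tested genes, 7.87% were higher and 7.61% lower in fl/fl macrophages. In KO macrophages these shares were 2.19% and 2.97% with 16 libraries, and 8.17% and 6.70% with 15. With so few genes tested, the counts called in either list are no result about it.

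Receptors moved in both directions. Of 13 tested receptors and co-receptors 2 rose and 3 fell in fl/fl macrophages (median −0.09), where 7.87% of all tested genes were higher and 7.61% lower. Those higher were Tgfbr1, the type I receptor of TGF-β (1.69 ± 0.44), and Acvr1, a type I receptor of BMPs (0.68 ± 0.15). Those lower were Tgfbr3, the co-receptor betaglycan (−1.55 ± 0.41), Acvr2a, a type II receptor (−1.07 ± 0.21), and Tgfbr2, the type II receptor of TGF-β (−0.49), named because so few fell. In KO macrophages 1 rose and 1 fell with 16 libraries, Acvr1 and Acvr2a (2.19% of all tested genes higher, 2.97% lower), and 3 rose and 2 fell without KO untreated replicate 1 (8.17% higher, 6.70% lower). Tgfbr1 had a log2 fold change in KO macrophages of 1.31 ± 0.43 with 16 libraries (edgeR adjusted p = 0.1004) and rose by 2.12 ± 0.27 with 15. Acvr1 rose in both fits, by 0.68 ± 0.15 and 0.92 ± 0.12.

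Of 18 Smad transducers and modulators, all tested, 5 rose and 1 fell in fl/fl macrophages, 1 rose and 1 fell in KO macrophages with 16 libraries, and 6 rose and 1 fell without KO untreated replicate 1. Over all tested genes, 7.87%, 2.19% and 8.17% were higher in these 3 fits and 7.61%, 2.97% and 6.70% lower. The medians of the list were 0.04, 0.05 and 0.07. Pmepa1, a negative regulator of TGF-β signalling, had 324 ± 21.98 CPM in KO macrophages with TGF-β1, against 2.36 ± 0.577 CPM in the 3 untreated KO libraries. It had 376 ± 32.5 CPM in fl/fl macrophages with TGF-β1, against 2.78 ± 0.311 CPM in untreated fl/fl macrophages. Its log2 fold change in KO macrophages was 1.98 ± 1.21 with 16 libraries, which did not pass (edgeR adjusted p = 0.468), and 7.12 ± 0.17 with 15, which did. In fl/fl macrophages it was 7.08 ± 1.58 (edgeR adjusted p = 0.00828). Smad3, which carries the TGF-β branch, fell by 0.72 in fl/fl macrophages (edgeR adjusted p = 0.00384). Smad1 and Smad5, which act on the Id genes in other cells, did not pass, with log2 fold changes of −0.44 (edgeR adjusted p = 0.0588) and 0.07 in fl/fl macrophages.

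The bHLH factors that Id proteins can pair with, and their relatives, were measured in 16 of 18 cases. In fl/fl macrophages 4 rose and 2 fell (median −0.05), in KO macrophages 2 rose and 1 fell with 16 libraries, and 5 rose and 1 fell without KO untreated replicate 1 (both medians 0.01). The shares of all tested genes were 7.87%, 2.19% and 8.17% higher and 7.61%, 2.97% and 6.70% lower in these 3 fits. Those called in KO macrophages with 16 libraries were Tal1 (0.95 ± 0.25), Bhlhe41 (1.24 ± 0.29) and Tfec, which fell. Tal1 and Bhlhe41 also rose in fl/fl macrophages, by 1.31 and 1.32. Hes1, a bHLH repressor that passed the filter on low counts only through its TGF-β1 libraries, rose by 5.87 ± 1.29 on the log2 scale in fl/fl macrophages. In KO macrophages Hes1 had 2.62 ± 0.91 with 16 libraries, which did not pass (edgeR adjusted p = 0.121), and 7.02 ± 0.55 with 15, which did. Its mean was 9.14 ± 2.31 CPM in KO macrophages with TGF-β1 and 0.0669 ± 0.0332 CPM in the 3 untreated KO libraries. Bhlhe40 had 1.81 ± 0.54 in KO macrophages with 16 libraries (edgeR adjusted p = 0.0692), and rose by 3.25 ± 0.17 with 15 and by 3.29 ± 0.58 in fl/fl macrophages. The E protein genes Tcf3 and Tcf12, main partners of Id proteins, did not pass in either genotype, with log2 fold changes between −0.12 and 0.19. Tcf4 had 0.36 in KO macrophages with 16 libraries (edgeR adjusted p = 0.252) and 0.60 with 15 (edgeR adjusted p = 0.00398). In fl/fl macrophages Tcf4 had 0.48 with 16 libraries (edgeR adjusted p = 0.0568) and 0.47 with 15 (edgeR adjusted p = 0.0114). Tfec, a macrophage bHLH factor, fell, with log2 fold changes of −1.06 and −1.26 in KO macrophages (16 and 15 libraries) and −1.497 in fl/fl macrophages.

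**Figure D4:**
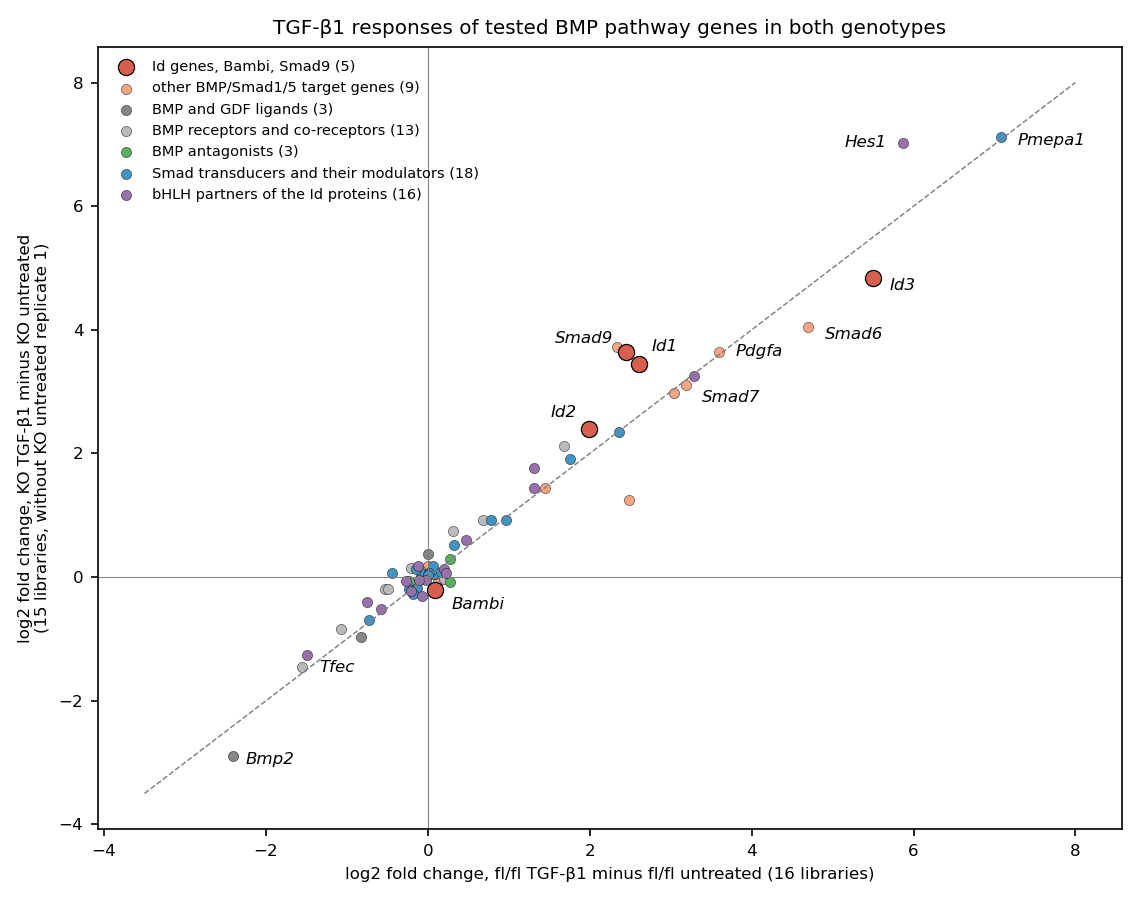
Log2 fold change with TGF-β1 of each tested gene of the 7 lists in KO macrophages (vertical axis, 15 libraries without KO untreated replicate 1) against that in fl/fl macrophages (horizontal axis, 16 libraries), 1 point per gene, with equal responses on the dashed line. Id3 lies at 4.85 and 5.50, next to Smad6 at 4.05 and 4.70, and Bambi lies near 0 in both.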

How the data were processed

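RNA sequencing was done on 16 macrophage libraries, 4 in each of 4 groups, from polyadenylated RNA. The labels' RNA extraction text mentions 8 cDNA libraries although 16 samples are labelled; this is unresolved. The authors deposited raw read counts per gene, as whole numbers, and FPKM values; 100% of the positive FPKM values that the authors deposited equal the count divided by gene length and library total, within 0.1%. TopHat2 2.0.9, HTSeq 0.6.1 and Cufflinks 2.1.1 and the builds mm10 and GRCm38.p6 are named, without roles, per the submitters' processing notes. Strand and the treatment of multiply mapped reads are not given in the sources used here.

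Counts were scaled by TMM in edgeR 4.0.16 (R 4.3.3), and filterByExpr kept 13080 genes. One quasi-likelihood fit (robust) of 16 libraries gave 5 contrasts, adjusted by the Benjamini-Hochberg method over all genes tested with a threshold of 0.05. The SE given with an edgeR log2 fold change is its absolute value divided by the square root of the quasi-likelihood F. This SE is approximate and is least reliable where the change is near 0. The script was tested on simulated data. Alternatives used DESeq2 1.42.0, limma 3.58.1 on log2(FPKM + 0.1) or log2(FPKM + 1), no filter, fits of only the groups compared, replicate blocks, and each library left out. Same-numbered libraries of a genotype deviated together weakly in fl/fl macrophages (correlations of 0.123 to 0.181) and in KO macrophages without untreated replicate 1 (0.127 to 0.224). With all 16 libraries the KO values were 0.0754 to 0.239. Across genotypes the values were −0.175 to 0.0216. Libraries of different number were not compared, so a pairing by number was not established. The main fit has no block. With a block within a genotype 994 genes passed in KO macrophages, against 676 in the main fit. Blocks within a genotype were added after the data were seen. So were the replicate block without KO untreated replicate 1 and the fits of only the groups compared without that library.

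The 7 genes and the lists were chosen with earlier results of these data known. Named genes of the other lists are up to 2 rising and 2 falling members with the largest change per genotype; the other list genes named were chosen after their values were seen. Genes most like a member are the 3 with the highest Pearson correlation of log2 CPM (prior count 2) among named genes with an average log2 CPM of at least 1.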

Additional observations from a re-analysis of the deposited data

Results flagged for a closer look

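In a test for 1 library far from the others of its group (Dixon's test at the 95% level, run on 7 genes in 4 groups), 3 of 28 sets of values stood out, where chance gives about 1 in 20. All were in untreated KO macrophages. For Id3 the library was replicate 1, with 62.5 CPM against 2.73 to 6.47 CPM in the other 3. For Id2 it was also replicate 1, with 56.1 CPM against 16.9 to 22.8 CPM. For Id4 it was replicate 2, with 0.103 CPM, which is 2 reads against 0 in the other 3 and so below the floor of 3 counts. Any set with a single library above 0 stands out in this test, so the flag of Id4 carries no information. The rate of 1 in 20 does not hold for such sets.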

How the results depend on the processing

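The calls of Id1, Id2 and Id3 in fl/fl macrophages kept their direction and side of the threshold in each of 27 alternatives. In KO macrophages the number of genes past the threshold was 676 with 16 libraries, 446 without a filter on low counts, 1093 by DESeq2 and 0 when only the KO libraries were fitted. Leaving out 1 library gave 81 to 1984 genes, moving the count by over 1.5 times for each of the 8 KO libraries, fl/fl TGF-β1 replicate 3 and fl/fl untreated replicates 2, 3 and 4. The highest came from leaving out KO untreated replicate 1. Leaving it out in other fits too, the replicate block gave 1738 genes, the block within a genotype 2264 and the KO libraries alone 1830. For untreated KO against fl/fl macrophages, 6 genes passed, against 10 without a filter, 61 by DESeq2 and 4 to 13 with 1 library left out (10 without KO TGF-β1 replicate 1 or fl/fl TGF-β1 replicate 4, 13 without KO untreated replicate 1). With TGF-β1, 5 genes passed, against 24 by DESeq2 and 4 to 8 with 1 library left out (8 without KO untreated replicate 1). For the difference in response 0 passed, 1 by DESeq2 and 2 by limma on log2(FPKM + 0.1) without a filter.

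Changes of sign were seen only among values that passed no threshold. For untreated KO against fl/fl, Id2 ranged over −0.17 to 0.59 with 1 library left out (−0.17 without KO untreated replicate 1), and had −0.16 with the replicate block as well and −0.15 with only these groups as well. There Id1 had −0.037 with that block and Bambi 0.011 with only these groups. Smad9 ranged over −0.11 to 1.62 with 1 library left out, being −0.06 and −0.11 without KO untreated replicate 1 or 4. For the difference in response, Id1 turned positive at 0.018 with the replicate block, 0.039 with the block within a genotype, 0.81 and 0.49 with these blocks and without KO untreated replicate 1, 0.11, 0.30 and 0.11 by limma (pseudocounts 0.1 and 1, and no filter), and ranged over −0.55 to 0.84 with 1 library left out (0.054 without KO TGF-β1 replicate 4, 0.20 without fl/fl untreated replicate 1, 0.84 without KO untreated replicate 1). Id2 ranged over −0.35 to 0.41 with 1 library left out (0.41 without KO untreated replicate 1), and had 0.41 and 0.29 with the blocks as well, and 0.0032 by limma with a pseudocount of 1. Smad9 ranged over −0.47 to 1.32 with 1 library left out, −0.47 being without fl/fl untreated replicate 3. Smad9 passed the threshold in KO macrophages in 5 of 28 alternatives and Id3 in 10 of 28; the cause was not tested. Depth limits Id1, Smad9, Atoh8 and Id4, with at most 87, 37, 12 and 3 reads per library.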
